A study of Homo sapiens with 6 samples.

Results

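The 10 genes described here encode the Aurora, Polo and spindle checkpoint kinases of mitosis with a pair of Aurora B partners: AURKA, AURKB, PLK1, PLK4, BUB1, BUB1B, TTK, NEK2, INCENP and BIRC5. They are every entry of the count files whose gene symbol is on this list. The list was made by name, with earlier results of these data known. All 10 were found among the 24462 different symbols, and 0 of them were entered repeatedly. The libraries came from HCEC 1CT, a human colonic epithelial progenitor line immortalized with telomerase and CDK4, and from 1CT-A, its APC knockdown version, with 3 libraries of each. The labels call the genotypes WT and APC KD and give no treatment. Both lines were grown with 20 ng/ml EGF, 1 µg/ml hydrocortisone, 10 µg/ml insulin, 2 µg/ml transferrin, 5 nM sodium selenite and 2% FBS. Both lines were provided to the study by another laboratory, and whether 1CT-A derives from 1 clone is not given in the sources used here. Nothing in the labels says that the libraries of a line came from separate cultures, so that p values measure the spread between these libraries, which may be technical.

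Aurora A, the product of AURKA, works at centrosomes and spindle poles. Aurora B, the product of AURKB, works at centromeres and the spindle midzone within the chromosomal passenger complex, which also holds INCENP as its scaffold, survivin (BIRC5) and borealin (CDCA8). PLK1 drives mitotic entry, centrosome maturation and cytokinesis, and PLK4 starts the duplication of centrioles. BUB1, BUBR1 (BUB1B) and MPS1 (TTK) hold the spindle checkpoint, which delays anaphase until every kinetochore is attached, and NEK2 separates the centrosomes. Dividing tissues such as the colon crypt carry these transcripts, and most of them peak in G2 and M phase of the cell cycle. APC is best known as a part of the complex that degrades β-catenin, and its protein also binds microtubules.

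Many G2/M genes are controlled through a CHR element near the transcription start (TTTGAA or TTTAAA) and through CCAAT boxes bound by NF-Y. After all members were seen to differ in the same direction, the promoters were searched for these letters on both strands. Whether these motifs have a part in the differences was not tested. The search used RefSeq windows of GRCh38.p14 from 250 bases before to 50 bases after a start, where 7 members had 10 windows. Windows were not used here for AURKA, TTK and BIRC5. The stretches of 160 bases directly before the start are shown for 6 members with a match there, without PLK4, whose 3 windows differ in their matches, 5′ to 3′ on the strand of the gene, with CHR letters and CCAAT letters of either strand in capitals.
PLK1, chr16:23678729-23678888, plus strand: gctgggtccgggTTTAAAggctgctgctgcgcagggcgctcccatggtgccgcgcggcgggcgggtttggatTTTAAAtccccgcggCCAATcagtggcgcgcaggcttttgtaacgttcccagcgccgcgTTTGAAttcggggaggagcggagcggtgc
BUB1B, chr15:40160909-40161068, plus strand: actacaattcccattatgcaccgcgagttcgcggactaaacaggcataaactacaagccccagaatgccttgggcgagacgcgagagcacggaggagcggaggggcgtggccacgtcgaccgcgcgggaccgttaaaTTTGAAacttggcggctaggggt
INCENP, chr11:62123851-62124010, plus strand: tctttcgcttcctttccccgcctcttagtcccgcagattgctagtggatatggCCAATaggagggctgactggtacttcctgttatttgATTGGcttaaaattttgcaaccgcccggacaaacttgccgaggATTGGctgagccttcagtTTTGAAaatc
BUB1, chr2:110678064-110678223, minus strand: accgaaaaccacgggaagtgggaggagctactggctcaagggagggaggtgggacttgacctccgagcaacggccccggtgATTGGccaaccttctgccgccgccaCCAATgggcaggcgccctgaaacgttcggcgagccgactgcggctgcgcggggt
NEK2, chr1:211675622-211675781, minus strand: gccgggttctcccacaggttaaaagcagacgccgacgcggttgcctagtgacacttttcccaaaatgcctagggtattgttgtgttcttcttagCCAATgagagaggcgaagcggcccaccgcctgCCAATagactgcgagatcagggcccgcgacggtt
AURKB, chr17:8210226-8210385, minus strand: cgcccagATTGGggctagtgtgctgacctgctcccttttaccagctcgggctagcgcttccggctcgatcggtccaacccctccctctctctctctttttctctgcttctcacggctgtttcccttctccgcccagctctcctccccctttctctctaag

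CHR letters were present for 4 of the 7 members, in 4 of 10 windows, and in 24.0% of all 35116 promoter windows. In PLK1 they began 148, 88 and 29 bases before the start, in BUB1B 23 bases and in INCENP 10 bases before it, while the CHR match of PLK4 lay behind the start of its first window. CCAAT letters were present for 6 of the 7 members, in 7 of 10 windows, and in 34.6% of all windows. BUB1 had them 79 and 54 bases before the start, NEK2 66 and 34 bases, PLK1 73 bases, INCENP 107, 71 and 28 bases, and window 3 of PLK4 86 bases. AURKB, whose windows for both starts overlap, had 1 such match at 153 bases before the start shown. The AURKB windows, which reach to 8210475 and 8210499, and the PLK1 window, from 23678639, lay inside the genes as annotated by GENCODE release 44. There AURKB starts at 8210600 on the minus strand and PLK1 at 23677656, and the bases before these starts were not searched. Both motifs together stood in 2 of the 10 windows, those of PLK1 and INCENP, and in 9.27% of all windows. A match describes the letters only, and the motifs did not overlap each other.

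**Figure D1:**
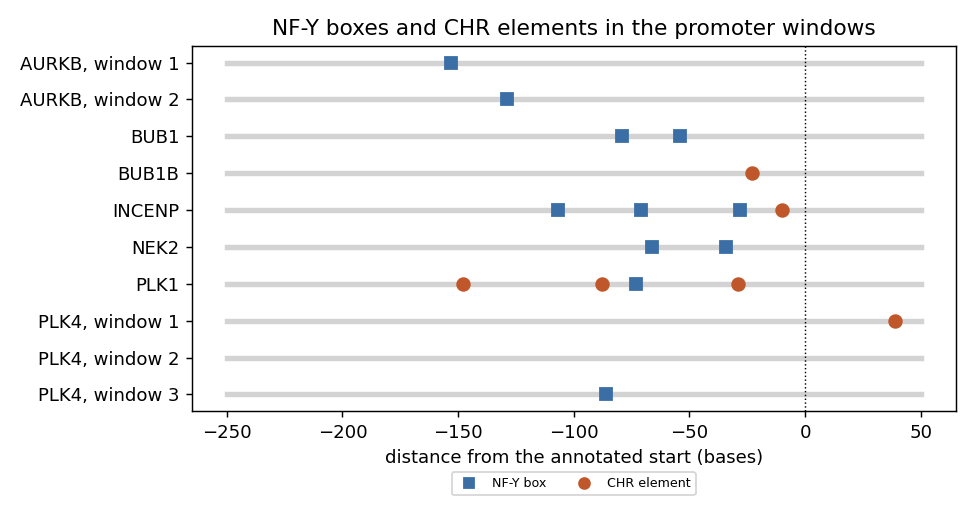
Position of matches in the 10 RefSeq promoter windows of 7 members, as the distance in bases from the start annotated by RefSeq (dotted line). Squares mark the first base of CCAAT letters (NF-Y box) and circles that of CHR letters, on either strand. PLK1 and INCENP hold both, and the second PLK4 window holds neither.

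Between 7788679 and 8452258 reads were counted in the 1CT libraries and between 11158108 and 12602988 in the 1CT-A libraries. Levels are given in CPM, the counts of a gene scaled to the same total in each library, and a level with ± is the mean and SD over the 3 libraries of a line. QuantSeq reads come from the 3′ end of a transcript, so that the counts are not divided by length, and levels of different genes are not ranked here. A value of 3 counts was taken as the smallest that can be seen, which is 0.238 to 0.385 CPM over the libraries and covers counting error only. The depleted gene APC averaged 46.6 ± 2.75 CPM over the 1CT libraries and 31.9 ± 2.21 CPM over those of 1CT-A (log2 fold change -0.58, SE 0.09, adjusted p = 1.76e-04 by edgeR). Of 12 colon epithelial markers, 6 had at most 3 counts in every library, namely EPCAM, KRT20, CDX1, CDX2, VIL1 and CLDN3. The 12 summed to 41.2 to 45.2 CPM in the 1CT libraries and 23.6 to 30.8 CPM in the 1CT-A libraries. All 12 mesenchymal markers, such as VIM and FN1, were counted, with sums of 45240 to 53303 CPM in the 1CT libraries and 22229 to 23627 CPM in the 1CT-A libraries. Most of this sum was FN1, at 44241 ± 3619 CPM in the first line and 18128 ± 829 CPM in the second. Of the other 11, 4 had higher means in 1CT-A, namely COL3A1 (47.8 and 253 CPM), DCN (70.6 and 89.4 CPM), CDH2 (49.8 and 63.0 CPM) and LUM (16.9 and 18.4 CPM). Among 6 endothelial markers PECAM1, VWF, CDH5, KDR and CLDN5 had at most 3 counts in every library, and the 6 summed to 3.59 to 6.76 CPM in the 1CT libraries and 1.08 to 2.63 CPM in the 1CT-A libraries. The part of these marker differences in the results was not tested.

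All 10 genes, 8 for kinases and 2 for Aurora B partners, were higher in 1CT-A than in 1CT. The rises ran from 1.57-fold for BIRC5 to 2.61-fold for BUB1B, with a median log2 fold change of 1.07, beside -0.01 over all 12514 genes tested. Each of the 10 passed edgeR's quasi-likelihood test at an adjusted p under 0.05, where 51.0% of all tested genes were called, 25.0% as higher and 26.0% as lower in 1CT-A. For each of the 10, every 1CT-A library lay above every 1CT library, which held for 31.8% of all tested genes. The study's methods set thresholds of 2-fold and p under 0.01 with a t-test. With these thresholds on the edgeR fit instead, without adjustment of p, 6 of the 10 were called, against 3.80% of all tested genes. These 6 were BUB1B, PLK4, TTK, PLK1, AURKB and BUB1. Summed over the members, the libraries held 457, 468 and 483 CPM in 1CT and 929, 896 and 937 CPM in 1CT-A. In bulk RNA, more cells in G2 and M phase and more RNA of these genes per cell cannot be told apart.

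**Figure D2:**
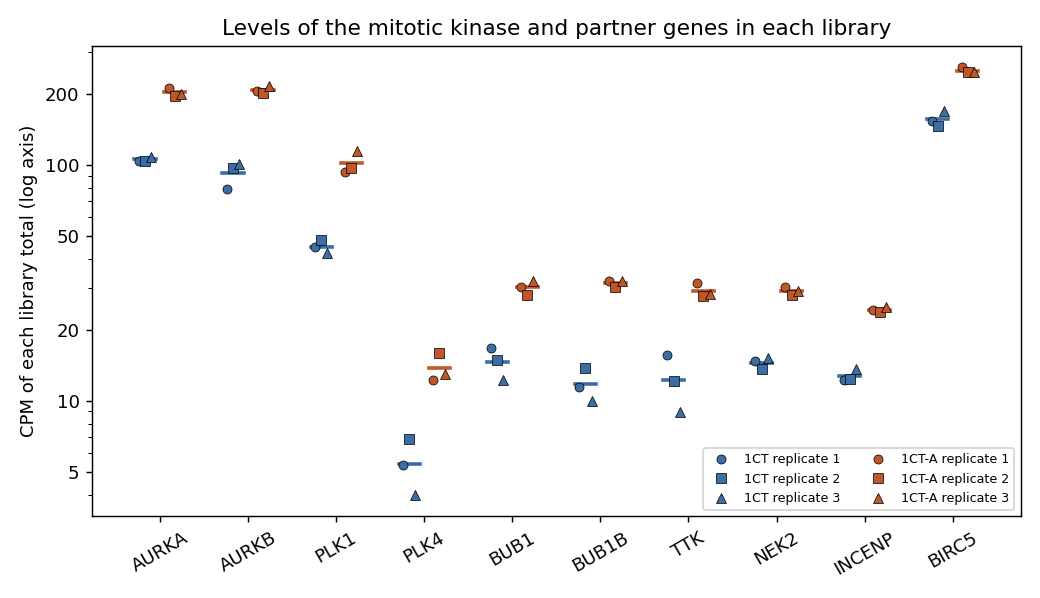
Level of each of the 10 genes in each of the 6 libraries, in CPM of the library's total on a log axis. Points are libraries (blue 1CT, orange 1CT-A) and horizontal bars are means of 3 libraries. The groups do not overlap for any gene, and the blue points spread most for PLK4 and TTK.

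Among the Aurora kinases, AURKA (chromosome 20, 56369389 to 56392337, minus strand, GENCODE release 44 on GRCh38) was at 104, 104 and 108 CPM in 1CT and at 212, 196 and 199.6 CPM in 1CT-A. The 1CT libraries lay within 4 CPM of each other, and the lowest 1CT-A library was 1.82 times the highest 1CT library. This was a rise of 1.87-fold (log2 fold change 0.90, SE 0.07, adjusted p = 4.42e-07 by edgeR). AURKB (chromosome 17, 8204733 to 8210600, minus strand) was at 79.2, 96.6 and 101 CPM in 1CT and at 205, 202 and 216 CPM in 1CT-A. The first 1CT library was lowest, and the 1CT-A libraries were close together. AURKB rose by 2.20-fold (log2 fold change 1.14, SE 0.09, adjusted p = 5.14e-07 by edgeR). A processed copy of AURKA, listed as AURKAPS1, had 3 to 17 counts in every library, at most 2.02% of the AURKA counts. FAM210B, the neighbour whose 3′ end faces that of AURKA without overlap, had 664, 605 and 630 counts in 1CT and 587, 590 and 626 in 1CT-A, whose libraries were deeper.

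The passenger complex partners INCENP and BIRC5 had smaller fold changes than AURKB. INCENP (chromosome 11, 62123998 to 62153169, plus strand), which binds and activates Aurora B, was at 12.2, 12.3 and 13.6 CPM in 1CT and at 24.2, 23.7 and 24.8 CPM in 1CT-A. Its libraries were tight in both lines, and it rose by 1.86-fold (log2 fold change 0.89, SE 0.11, adjusted p = 2.73e-05 by edgeR). BIRC5 (chromosome 17, 78214186 to 78225636, plus strand), the survivin gene, was at 153, 146 and 168 CPM in 1CT and at 259, 247 and 247 CPM in 1CT-A. Its groups stayed apart by the smallest factor of the 10 genes, 1.47 between the lowest 1CT-A and the highest 1CT library. BIRC5 had the smallest rise, 1.57-fold (log2 fold change 0.65, SE 0.08, adjusted p = 1.41e-05 by edgeR). CDCA8, the borealin gene and the remaining subunit of the complex, had 403, 422 and 328 counts in 1CT and 1589, 1554 and 1671 counts in 1CT-A. Its fitted rise was above that of each of the 10 members (difference tested only against AURKB, as a ratio; log2 fold change 1.51, SE 0.08, adjusted p = 2.09e-08 by edgeR).

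Of the Polo kinases, PLK1 (chromosome 16, 23677656 to 23690367, plus strand) was at 44.8, 47.9 and 42.1 CPM in 1CT and at 92.9, 97.1 and 115 CPM in 1CT-A. The third 1CT-A library was highest, and the groups were separated by a factor of 1.94. PLK1 rose by 2.20-fold (log2 fold change 1.14, SE 0.10, adjusted p = 7.41e-07 by edgeR). The last 58 bases of PLK1 overlap the end of ERN2, an endoplasmic reticulum stress sensor gene on the opposite strand. ERN2 had 112, 141 and 109 counts in 1CT and 392, 409 and 518 counts in 1CT-A, which was 29.6% to 35.5% and 35.8% to 37.8% of the PLK1 counts of the same libraries. The use of strand in counting is not given in the sources used here, so that reads of both genes cannot be told apart. With the ERN2 counts added to PLK1, the log2 fold change was 1.18 (edgeR adjusted p = 4.09e-07), an alternative added after the data were seen.

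PLK4 (chromosome 4, 127880893 to 127899224, plus strand) had the fewest counts of the 10 genes, 45, 57 and 31 in 1CT and 136, 182 and 164 in 1CT-A. It was at 5.32, 6.88 and 3.98 CPM in 1CT and at 12.2, 16.0 and 13.0 CPM in 1CT-A. The 1CT libraries differed by 1.73-fold among themselves, and the lowest 1CT-A library was 1.77 times the highest of them. Its rise of 2.46-fold (log2 fold change 1.30, SE 0.19, adjusted p = 8.91e-05 by edgeR) had the widest 95% interval of the 10, from 0.89 to 1.71.

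The spindle checkpoint kinases rose as well. BUB1 (chromosome 2, 110637528 to 110678063, minus strand), which phosphorylates histone H2A at centromeres, was at 16.7, 14.9 and 12.2 CPM in 1CT and at 30.4, 28.0 and 32.3 CPM in 1CT-A. The groups were separated by a factor of 1.68, and BUB1 rose by 2.02-fold (log2 fold change 1.01, SE 0.12, adjusted p = 2.03e-05 by edgeR). BUB1B (chromosome 15, 40161023 to 40221123, plus strand) encodes BUBR1, the checkpoint complex subunit that inhibits the anaphase-promoting complex. BUB1B was at 11.5, 13.8 and 10.0 CPM in 1CT and at 32.1, 30.4 and 32.1 CPM in 1CT-A. It had the widest gap, with the lowest 1CT-A library at 2.21 times the highest 1CT library. Its rise of 2.61-fold was the largest of the 10 (log2 fold change 1.38, SE 0.12, adjusted p = 1.22e-06 by edgeR). PAK6, the gene that overlaps the end of BUB1B on the same strand, had 0 counts in every library.

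TTK (chromosome 6, 80003887 to 80042527, plus strand) encodes MPS1, the kinase that starts checkpoint signaling at unattached kinetochores, and was at 15.6, 12.1 and 8.99 CPM in 1CT and at 31.5, 27.6 and 28.2 CPM in 1CT-A. The 1CT libraries spread by 1.74-fold, about as far as those of PLK4, while the 1CT-A libraries were close together. TTK rose by 2.31-fold (log2 fold change 1.21, SE 0.16, adjusted p = 3.29e-05 by edgeR). NEK2 (chromosome 1, 211658657 to 211675630, minus strand), which dissolves the linker between centrosomes, was at 14.7, 13.6 and 15.2 CPM in 1CT and at 30.2, 27.9 and 29.2 CPM in 1CT-A. Both groups were tight, and NEK2 rose by 1.96-fold (log2 fold change 0.97, SE 0.11, adjusted p = 8.93e-06 by edgeR).

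**Figure D3:**
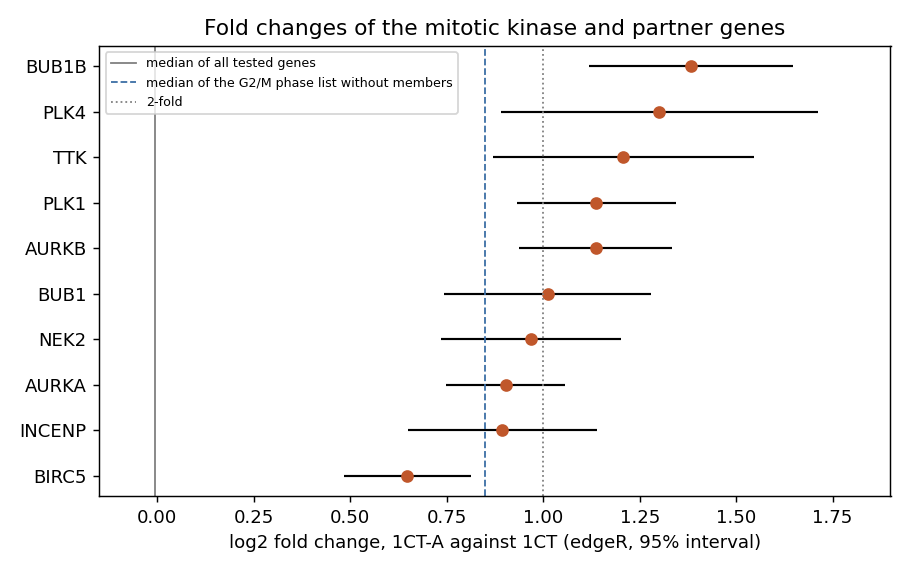
Log2 fold changes of the 10 genes between the lines (1CT-A over 1CT) from edgeR's quasi-likelihood fit, with 95% intervals. The solid line is the median of all tested genes (-0.01), the dashed line that of the G2/M phase list without the members (0.85), and the dotted line marks a 2-fold rise. BIRC5 is lowest, and its interval ends below the dashed line.

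The order of the rises was BUB1B, PLK4, TTK, PLK1, AURKB, BUB1, NEK2, AURKA, INCENP and BIRC5. The interval of each gene overlapped that of its neighbour in this order. The interval of BIRC5, from 0.48 to 0.81, ended below the lower limits of BUB1B (1.12), AURKB (0.94), PLK1 (0.93), PLK4 (0.89) and TTK (0.87). The spread between libraries differed among the members. In 1CT the SD was 2.06% of the mean for AURKA, where counting alone gives 3.41%, and 27.1% for TTK, where counting gives 9.97%. In 1CT-A the same share ran from 2.35% for INCENP to 14.5% for PLK4. The third 1CT library held the lowest 1CT level of 5 members, PLK1, PLK4, BUB1, BUB1B and TTK, and the highest of the other 5. Without it, the log2 fold changes of TTK and PLK4 were 1.05 and 1.14, and those of AURKB and BIRC5 were 1.22 and 0.72.

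Ratios of counts within a library do not depend on scaling, and 6 pairs of related genes were compared. BUB1 had 1.45, 1.08 and 1.22 counts per BUB1B count in 1CT and 0.947, 0.922 and 1.00 in 1CT-A, a log2 difference of -0.37 between means. BIRC5 had 1.94, 1.51 and 1.67 counts per AURKB count in 1CT and 1.26, 1.22 and 1.14 in 1CT-A, a log2 difference of -0.49. In both pairs every 1CT-A library lay below every 1CT library. The ratio of INCENP to AURKB differed by -0.25 and that of AURKA to AURKB by -0.24, without overlap of the lines. Without the first 1CT library, where AURKB was lowest, they differed by -0.17 and -0.14, and the ratio of BIRC5 to AURKB by -0.40. CDCA8 moved the other way, with 0.602, 0.528 and 0.419 counts per AURKB count in 1CT and 0.694, 0.674 and 0.613 in 1CT-A. The log2 difference was 0.37, or 0.49 without the first and 0.23 without the third 1CT library. For these 5 pairs the exact permutation test, two-sided, gave p = 0.1, the smallest it can give for 3 libraries against 3, and 0.12 after adjustment over the 6 pairs. The ratio of PLK1 to PLK4 overlapped between the lines, with a log2 difference of -0.20 (exact permutation test, two-sided, p = 0.5, 0.5 after adjustment). It was -0.05 without the third 1CT library and -0.06 without the second 1CT-A library. All pairs but BUB1 to BUB1B and PLK1 to PLK4 share AURKB as the denominator, so that they are not separate observations. How often ratios of other genes separate the lines was not computed.

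The members were then set against the other cell cycle genes of the same libraries. The G2/M phase list of Seurat holds 54 genes, of which 6 are members, namely AURKA, AURKB, BUB1, TTK, NEK2 and BIRC5. Of the 46 further genes found and tested, 43 were higher and 0 lower in 1CT-A at an edgeR adjusted p under 0.05, with a median log2 fold change of 0.85. The 43 genes of the S phase list hold no member, and 42 were higher and 0 lower, with a median of 0.85. The summed G2/M genes rose by 1.73-fold, with 4494 ± 116 CPM in the 1CT libraries and 7777 ± 17.7 CPM in those of 1CT-A. Relative to this sum 9 of the 10 members were higher in 1CT-A, with a median log2 difference of 0.32 over the 10. For 7 of them, AURKA, AURKB, PLK1, PLK4, BUB1B, NEK2 and INCENP, every 1CT-A library lay above every 1CT library, which held for 3.25% of all tested genes. Since the sum itself rose, genes that rose less or not at all fall relative to it, which keeps this percentage low. The percentage among the other G2/M or S phase genes was not computed. BUB1B gained most, from 0.263%, 0.302% and 0.219% of the G2/M sum in 1CT to 0.414%, 0.390% and 0.412% in 1CT-A, a log2 difference of 0.63. INCENP and AURKA gained least among the 9, with 0.14 and 0.15. BUB1 and TTK overlapped between the lines, at 0.26 and 0.46. BIRC5 was the exception, at -0.10 with overlapping libraries. Relative to the median gene of the G2/M list the median over the members was 0.23, and relative to the summed S phase genes it was 0.22, with 9 of 10 above 0 in both cases. AURKA and INCENP were then near 0, at 0.05 and 0.05 relative to the median gene and 0.05 and 0.04 relative to the S phase sum. The pooled SD between libraries of their log2 share of the G2/M sum was 0.05 and 0.06. Of the general proliferation genes, MKI67 had a log2 fold change of 0.39 (standard error 0.08, adjusted p = 0.00201 by edgeR). TOP2A had 0.84 (standard error 0.07, adjusted p = 9.81e-07 by edgeR). PCNA, a replication clamp, had 1.22 (standard error 0.09, adjusted p = 2.82e-07 by edgeR). MKI67 and TOP2A are on the G2/M list and PCNA is on the S phase list, so that they are not a separate comparison. TOP2A alone averaged 1024 CPM of the G2/M sum in 1CT and 1884 CPM in 1CT-A.

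**Figure D4:**
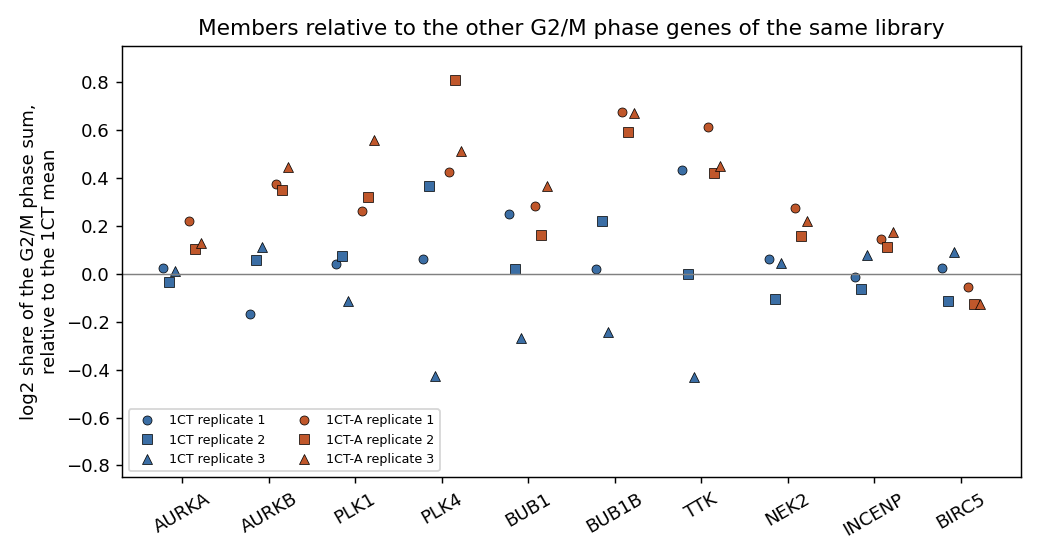
Share of each of the 10 genes in the summed G2/M phase genes of the same library, as log2 relative to the mean of the 1CT libraries. Points are libraries (blue 1CT, orange 1CT-A). The orange points lie above the blue points for 7 genes, overlap them for BUB1 and TTK, and lie within or below them for BIRC5.

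Other genes of the pathway were described from lists by function. At the threshold used for these lists, 25.0% of all tested genes were called as higher and 26.0% as lower in 1CT-A. Of 12 other spindle checkpoint genes, all tested, 8 rose, 0 fell and 4 did not pass the test, with a median log2 fold change of 0.54. MAD2L1, whose protein binds CDC20 in the checkpoint complex, rose most, with 127, 124 and 80 counts in 1CT and 402, 396 and 433 in 1CT-A (log2 fold change 1.34, SE 0.13, adjusted p = 2.49e-06 by edgeR). TRIP13, the ATPase that takes this complex apart, followed with 1.10 (SE 0.12, adjusted p = 7.00e-06 by edgeR). BUB3, the partner of both BUB1 and BUBR1, was at 0.14 (SE 0.11, adjusted p = 0.283 by edgeR), and MAD1L1 at -0.03 (SE 0.18, adjusted p = 0.911 by edgeR). BUB3 and MAD1L1 were named after their values were seen.

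Of 8 Aurora cofactors and other passenger complex genes, 7 were tested, of which 4 rose and 1 fell, with a median of 0.73. CDCA8 rose most, followed by BORA, whose protein lets Aurora A activate PLK1, at 1.19 (SE 0.12, adjusted p = 4.87e-06 by edgeR). AJUBA, which encodes a LIM protein that binds Aurora A, fell by 0.48 on the log2 scale (SE 0.10, adjusted p = 0.00111 by edgeR), with means of 42.2 ± 2.77 and 31.1 ± 2.65 CPM. AURKC, the Aurora kinase of germ cells, had 1 to 6 counts per library and was not tested. Of 10 other Polo kinases and centriole duplication genes, 9 were tested, of which 5 rose and 1 fell, with a median of 0.53. SASS6, the cartwheel protein gene of new centrioles, rose by 0.95 (SE 0.17, adjusted p = 4.56e-04 by edgeR) and CENPU, whose protein recruits PLK1 to kinetochores, by 0.85 (SE 0.12, adjusted p = 7.02e-05 by edgeR). PLK3, a stress-responsive Polo kinase, went the other way. It had 270, 339 and 325 counts in 1CT and 128, 173 and 153 in 1CT-A (log2 fold change -1.60, SE 0.14, adjusted p = 9.09e-07 by edgeR). PLK2 was at 0.14 (SE 0.10, adjusted p = 0.271 by edgeR), and PLK5 had at most 2 counts and was not tested.

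Of 10 other NEK kinases, 8 were tested, of which 1 rose and 1 fell, with a median of -0.03. NEK4 rose by 0.91 (SE 0.21, adjusted p = 0.00262 by edgeR), and NEK7, known for its part in the NLRP3 inflammasome, fell by 0.83 on the log2 scale (SE 0.18, adjusted p = 0.00164 by edgeR). Of 7 other BIRC genes, 4 were tested, of which 0 rose and 3 fell, with a median of -0.67. BIRC2, a ubiquitin ligase of TNF receptor signaling, averaged 210 ± 17.5 and 114 ± 6.01 CPM (log2 fold change -0.91, SE 0.08, adjusted p = 8.00e-07 by edgeR). BIRC6 fell by 0.43 (SE 0.11, adjusted p = 0.00519 by edgeR). The third to fall, BIRC3, named after its values were seen, had 45, 77 and 51 counts in 1CT and 11, 19 and 10 counts in 1CT-A.

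Of 19 phosphatases that oppose these kinases and their regulators, all tested, 9 rose and 1 fell, with a median of 0.23. CDCA2, which brings phosphatase PP1 to chromatin, rose by 0.86 (SE 0.09, adjusted p = 8.24e-06 by edgeR), and MASTL, the Greatwall kinase that inhibits PP2A, by 0.80 (SE 0.18, adjusted p = 0.00246 by edgeR). PPP2R5B, a PP2A subunit gene, fell by 0.62 (SE 0.18, adjusted p = 0.0115 by edgeR). Of 14 G2/M transcription control genes, all tested, 10 rose and 0 fell, with a median of 0.56. LIN9 and LIN52, subunits of the MuvB complex that binds CHR elements, had the largest rises, 1.56 (SE 0.24, adjusted p = 1.26e-04 by edgeR) and 1.12 (SE 0.20, adjusted p = 4.72e-04 by edgeR). Both rest on few counts. LIN9 had 35, 39 and 22 counts in 1CT and 92, 151 and 176 in 1CT-A. LIN52 had 39, 27 and 36 counts in 1CT and 101, 91 and 136 in 1CT-A. Of the other MuvB genes on the list, LIN54 rose by 0.98, while LIN37 was at -0.28 (adjusted p = 0.371 by edgeR) and RBBP4 at -0.06 (adjusted p = 0.567 by edgeR). The NF-Y subunit genes NFYB and NFYC rose by 0.53 and 0.43, and the remaining subunit gene NFYA was at 0.32 (adjusted p = 0.0566 by edgeR). FOXM1, the forkhead factor of G2/M genes, rose by 0.85, and B-MYB (MYBL2) by 0.69. The rises were not limited to activators of G2/M genes. RBL1 rose by 1.02 (SE 0.12, adjusted p = 1.30e-05 by edgeR), E2F4 by 0.56 and TFDP1 by 0.55, while RBL2 was at 0.13 (adjusted p = 0.543 by edgeR). Apart from LIN9 and LIN52, these genes were named after their values were seen.

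**Figure D5:**
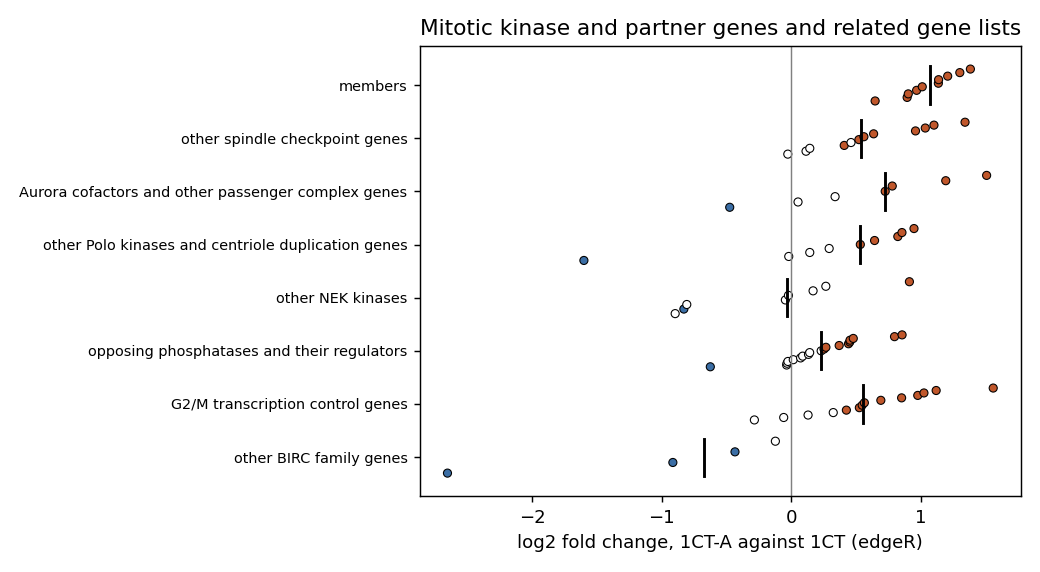
Log2 fold changes between the lines (1CT-A over 1CT) for the 10 members and for the tested genes of 7 related lists. Filled points passed edgeR's test at an adjusted p under 0.05 (orange higher, blue lower), open points did not, and black bars are list medians. The members lie between 0.65 and 1.38, the other NEK kinases lie on both sides of 0, and the other BIRC genes lie below it.

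The 5 genes nearest to the mean profile of the members were NDC1, FANCD2, SEPHS1, CKS1B and DEPDC1. The profile was the centred log2(CPM + 1) over the 6 libraries, and likeness was the Euclidean distance among the 8215 genes that reached 10 CPM on average. The distances were 0.106 to 0.123, and those of the members themselves to their mean ran from 0.222 for AURKA to 0.525 for BIRC5. The 5 genes were picked as the nearest of all candidates and the members by name, so that these ranges cannot be compared. NDC1, a nuclear pore gene, was nearest, with means of 71.2 ± 5.67 and 145 ± 3.71 CPM in the lines. CKS1B, which encodes a small subunit of cyclin dependent kinases, averaged 150.0 ± 7.59 and 307 ± 13.9 CPM. All profiles share the same 6 libraries, which fall into 2 lines.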

How the data were processed

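Gene expression was measured by QuantSeq 3′ RNA sequencing of 500 ng total RNA in 3 libraries of 1CT and 3 of 1CT-A. The authors deposited raw read counts per gene symbol, 1 file per library. Their processing notes name Bowtie2, edgeR and the build hg19. The counting tool, its annotation and its use of strand are not given in the sources used here. Coordinates and promoter sequences are from GRCh38 and were not used in counting. Entries of a repeated symbol were summed.

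Counts were tested with edgeR 4.0.16 in R 4.3.3 (TMM, filterByExpr with a minimum count of 10, quasi-likelihood test without a block, Benjamini-Hochberg adjustment over all 12514 genes tested). Fold changes, standard errors and list counts come from this fit, and CPM values are scaled to each library's total without TMM. Exact permutation tests were used for ratios. The phase lists are those of Seurat 5.3.0. Alternatives used limma 3.58.1 and DESeq2 1.42.0.

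The members and lists were chosen with earlier results of these data known. Examples from a list are the 2 largest rises and 2 largest falls among called genes that averaged 5 CPM or more. Other genes are said to be chosen after their values were seen, apart from APC, 3 proliferation genes, neighbours and copies of the members, and PLK2, PLK5 and AURKC as relatives of the members. A further marker list is not reported here.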

Additional observations from a re-analysis of the deposited data

How the results depend on the processing

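Each of the 10 members kept its rise and its call under every alternative: edgeR with the size factors of DESeq2, scaling by library size alone, unfiltered counts, at least 10 counts in every library, DESeq2, limma-voom, an adjusted p threshold of 0.01, the replicate block, and each library left out in turn. The median log2 fold change of the members ran from 1.01 to 1.12. The largest adjusted p of a member in any of these fits was 8.82e-04, for PLK4. Between 5 and 7 members passed the thresholds of 2-fold and p under 0.01. BUB1 and NEK2, at log2 fold changes of 1.01 and 0.97 in the main analysis, crossed 2-fold. Without the third 1CT library they were at 0.92 and 1.02, without the second 1CT-A library at 1.07 and 1.01, and without the third 1CT-A library at 0.97 and 0.97. Between 39 and 48 of the genes of the related lists were called, with 44 in the main analysis. Scaling by library size alone gave 3450 higher genes of 6464 called, against 3131 of 6388.

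In the fit with a replicate block, the median over the members was 1.07, 10 members were higher and 6091 genes were called, of which 6000 were shared with the fit without it. Same-numbered libraries correlated at -0.15, 0.21 and -0.13 in their deviations from the group means over 8231 genes, so that the numbers are not taken as pairs.

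Counts limit PLK4 most, with 31 to 57 reads per 1CT library.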
